A study of Mus musculus with 12 samples.

Results

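Pvt1 and the genes of the Myc network were followed through calcium-induced differentiation of primary mouse keratinocytes. The 10 genes were taken by name: Pvt1, Myc, Mycn, Mycl, Max, Mxd1, Mxd4, Mnt, Mga and Miz1. A deposited table or peak list held 9 of them, out of 10751 genes named in any. Miz1 was in none under that symbol, and RefSeq gives it as a synonym of 2 genes, Zbtb17 and Pias2; Zbtb17, whose protein is the known partner of Myc, is described beside the members and not counted as one.

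The study compared day 4, when the cells had been differentiated by a calcium shift, with day 0, when they were undifferentiated. All cells came from the epidermis of newborn mice, were grown up to passage 3 on 3T3 fibroblast feeders stopped by mitomycin C, and were cultured in medium of low calcium; the labels name no strain or genotype. Each day had 3 libraries of RNA fragments captured for N6-methyladenosine (m6A), the commonest internal methylation of messenger RNA, and 3 input libraries of polyadenylated RNA that was not captured, 12 libraries in all. The study asked how RNA methylation differs between undifferentiated and differentiated cells, and its title names Pvt1.

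Myc is a transcription factor that drives growth and division. It binds DNA as a pair with Max, and Mycn and Mycl are its paralogs. The Mxd proteins, Mnt and Mga also pair with Max and compete for the same DNA element, the E-box. They mostly act as repressors, the Mxd proteins and Mnt through Sin3 or related complexes. The balance of partners is therefore classically said to turn from Myc to Mxd proteins when cells leave the cycle. In the epidermis, Myc is known for pushing stem cells out of their compartment as well as for driving division. Pvt1 is a long noncoding RNA encoded just downstream of Myc, known in human cancers for being co-amplified with Myc and for raising the level of its protein.

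The files held no value per library, so the values below are the authors' estimates, with their standard errors (SE), taken to rest on the 3 input libraries per day for expression. The depth of single libraries is unknown, and leaving a library out was not possible. The labels do not say whether the replicates came from separate mice, so the p-values measure the spread between these libraries, which may be technical. Neither table of differences names its direction; day 4 over day 0 was inferred, since 93.8% of genes and 98.8% of sites with peaks at day 4 alone had positive values, and 96.0% of genes and 75.6% of sites with peaks at day 0 alone had negative ones. Expression was called at a DESeq2 adjusted p of at most 0.05, and a gene absent from the expression table was either not called or not tested. In bulk RNA, fewer cells expressing a gene and less of its RNA per cell cannot be told apart.

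Keratinocyte markers were present. Of 5 differentiation markers 3 were higher at day 4 and 2, Lor and Flg, were not listed, while of 5 basal markers 4 were also higher and 1, Trp63, lower in the authors' deposited table. Involucrin (Ivl), a cornified envelope protein, had a log2 fold change of 3.67 (SE 0.12) in that table. The basal keratin Krt15 had a larger one of 4.57 (SE 0.11), and the differentiation keratin Krt10 a smaller one of 1.47 (SE 0.15). The rises were therefore not confined to differentiation markers. Of 12 fibroblast and feeder markers, 3 were higher (Postn, Pdgfra and Fn1), 1 lower (Col6a1) and 8 not listed, with log2 fold changes between -2.07 and 3.66 in the authors' deposited table. Melanocyte markers had 2 of 8 higher, and immune and endothelial markers had 1 of 6 higher and 1 lower. Among the higher markers, Krt1, Kit and Pecam1 had very low mean normalized counts of 2.65, 4.74 and 5.30 over both days. Their part in the values below was not tested.

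The promoters of 3 members hold an intact E-box, the element that Max-containing pairs bind, and they are shown because each of these genes codes for Max itself or for one of its repressive partners. The windows are RefSeq sequences of GRCm38.p6, 250 bases before and 50 after a RefSeq transcript start, in the direction of transcription, with the E-box in capitals. The Max window lies at chr12:76962199-76962498 on the minus strand, that of Mxd4 at chr5:34187661-34187960 on the minus strand and that of Mnt at chr11:74830674-74830973 on the plus strand.
Max: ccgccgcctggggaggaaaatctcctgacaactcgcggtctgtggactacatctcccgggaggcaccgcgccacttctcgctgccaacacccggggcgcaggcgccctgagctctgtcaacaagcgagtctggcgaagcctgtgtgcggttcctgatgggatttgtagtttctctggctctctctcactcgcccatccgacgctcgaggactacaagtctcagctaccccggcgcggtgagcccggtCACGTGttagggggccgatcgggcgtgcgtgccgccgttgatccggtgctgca
Mxd4: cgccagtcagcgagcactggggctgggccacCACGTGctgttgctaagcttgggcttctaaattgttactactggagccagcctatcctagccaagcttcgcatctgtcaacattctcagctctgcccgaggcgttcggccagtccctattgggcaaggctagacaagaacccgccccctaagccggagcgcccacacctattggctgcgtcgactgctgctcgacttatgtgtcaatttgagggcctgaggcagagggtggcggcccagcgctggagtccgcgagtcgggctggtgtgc
Mnt: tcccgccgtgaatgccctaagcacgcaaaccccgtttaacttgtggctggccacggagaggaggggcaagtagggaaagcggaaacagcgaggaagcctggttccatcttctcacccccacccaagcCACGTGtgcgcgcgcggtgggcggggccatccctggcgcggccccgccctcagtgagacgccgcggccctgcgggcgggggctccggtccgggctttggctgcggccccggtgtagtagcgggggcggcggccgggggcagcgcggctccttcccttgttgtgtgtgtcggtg

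The motif searched was CACGTG, which reads the same on both strands. Its first base lay at position -3 in Max, -219 in Mxd4 and -123 in Mnt, counted from that start with no position 0. Windows were available for 7 members, and those of Mycn, Mycl, Mxd1 and Mga held no CACGTG. The motif was in 7.15% of all RefSeq windows, and 8.09% of all genes with a window had one that held it. Among genes with a window, the share was 12.9% of those called lower at day 4 and 10.97% of those called higher. With windows for only 7 members, no difference from these shares was tested. A match describes the letters and does not show binding.

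Members moved in both directions. By DESeq2, 4 members were lower at day 4 (Pvt1, Myc, Mycn and Mga), 4 were higher (Mycl, Max, Mxd1 and Mxd4), and Mnt and Miz1 were not listed. Of all 14924 genes tested, 26.4% were called lower and 27.1% higher, and with 10 members the counts are read as a description beside these shares.

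**Figure D1:**
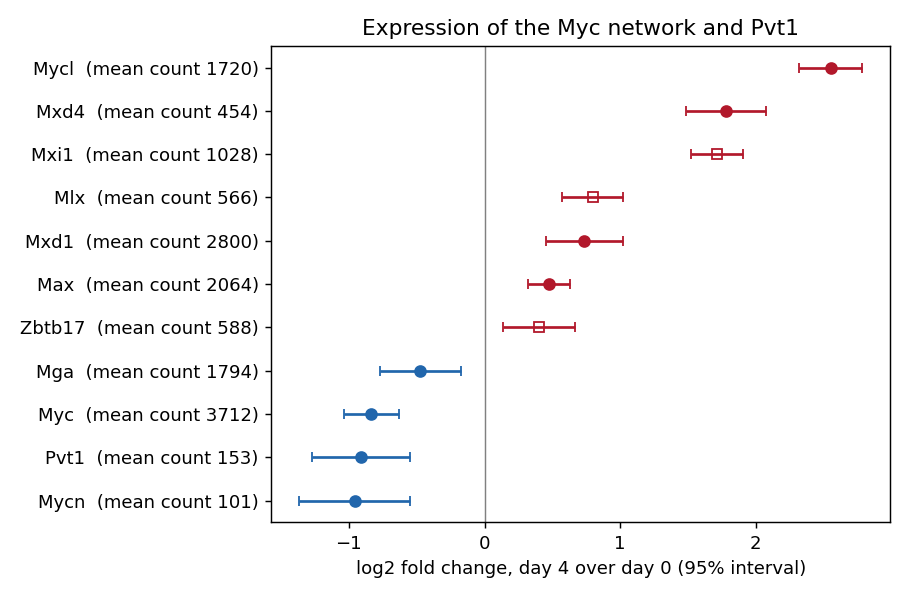
Log2 fold change of expression, day 4 over day 0 (x axis), for the 8 listed members (filled circles) and 3 listed genes of the wider network (open squares), each with its mean normalized count over both days; whiskers are 95% intervals from the authors' SE. Mycl at 2.55 stands above all others, and Mycn, Pvt1 and Myc lie together between -0.96 and -0.83.

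Among the activators, Myc fell and Mycl rose. Myc, on chromosome 15 from 61985341 to 61990361 (mm10), had a mean normalized count of 3712 over both days and a log2 fold change of -0.83 (SE 0.11), so day 4 stood at 0.561 times the day 0 level (95% interval 0.487 to 0.647) in the authors' deposited table. Mycn, which is best known from neural progenitors and neuroblastoma, had a mean normalized count of 101 over both days and also fell, with a log2 fold change of -0.96 (SE 0.21) and a DESeq2 adjusted p = 1.3e-05 in the authors' deposited table. Mycl, known from small cell lung cancer, was 5.86-fold higher at day 4 (95% interval 4.98 to 6.89) in the authors' deposited table, with a log2 fold change of 2.55 (SE 0.12, DESeq2 adjusted p = 3.7e-99). That rise ranked 554th of the 4040 genes that were higher, whereas the falls of Mycn, Pvt1 and Myc ranked 1567th, 1675th and 1858th of the 3938 that were lower.

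Pvt1 fell beside Myc. It spans 222230 bp of chromosome 15, from 62037986 to 62260215 (mm10), and starts 47624 bp beyond the end of Myc on the same strand. In the authors' deposited table its mean normalized count was 153 and its level at day 4 was 0.532 times that at day 0 (95% interval 0.415 to 0.682, DESeq2 adjusted p = 2.5e-06). The estimates of all 4 falls among members were under 2-fold, though the intervals of Mycn, Pvt1 and Myc reach past it. The intervals of Mycn, Pvt1, Myc and Mga overlapped, so no order among these 4 falls can be read. The other 13 RefSeq loci within 1 Mb of Myc or Pvt1, none of them protein coding, were in none of the deposited tables.

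Max, the shared partner, and the Mxd repressors rose. Max was 1.39-fold higher at day 4 (95% interval 1.25 to 1.55, DESeq2 adjusted p = 1.9e-08) in the authors' deposited table, with a mean normalized count of 2063. Mxd1, which is induced as many cell types differentiate, was 1.66-fold higher (95% interval 1.37 to 2.03, DESeq2 adjusted p = 1.5e-06) in the authors' deposited table. Mxd4, its paralog, was 3.44-fold higher (95% interval 2.80 to 4.22, DESeq2 adjusted p = 5.4e-31) in the authors' deposited table, with a mean normalized count of 454 over both days. The intervals of Max and Mxd1 overlapped, while those of Mxd1 and Mxd4, and of Mxd4 and Mycl, did not.

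Mga fell. It is a very large protein that joins a T-box to a Max-pairing domain and belongs to a Polycomb-type complex. In the authors' deposited table day 4 stood at 0.720 times day 0 (95% interval 0.585 to 0.887, DESeq2 adjusted p = 0.00466). Mnt, the broadly expressed repressor of the family, was not in the expression table.

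Of the 6 further genes of the network, 3 were higher at day 4 and 3 (Mxd3, Mlxip and Mlxipl) were not listed. Mxi1, a paralog of Mxd1, was 3.27-fold higher (95% interval 2.87 to 3.74), and Mlx, the Max-like partner of the glucose-sensing Mlxip and Mlxipl proteins, was 1.74-fold higher (95% interval 1.49 to 2.03) in the authors' deposited table. Zbtb17, the gene of the Miz-1 protein, through which Myc represses its targets, was 1.32-fold higher (95% interval 1.10 to 1.59, DESeq2 adjusted p = 0.00626) in the authors' deposited table.

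Enrichment of m6A was called in 9 of the 10 members on at least 1 day, against 74.3% of the 10751 genes named in any table. The sets differ, since a peak alone can place a gene among the 10751, whereas the members include Miz1, which was in none. Members held 36 listed peaks at day 4 and 30 at day 0, none outside the RefSeq span of its gene. Day 4 peaks overlapped a day 0 peak in 25 of 36 cases (69.4%), against 78.9% of all day 4 peaks. Day 0 peaks overlapped a day 4 peak in 23 of 30 cases (76.7%), against 70.2% of all day 0 peaks. Each day has 1 list for 3 replicates, so these counts carry no replicate error, and the enrichment scores below are the authors' own values with an unstated scale, read only within a list.

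**Figure D2:**
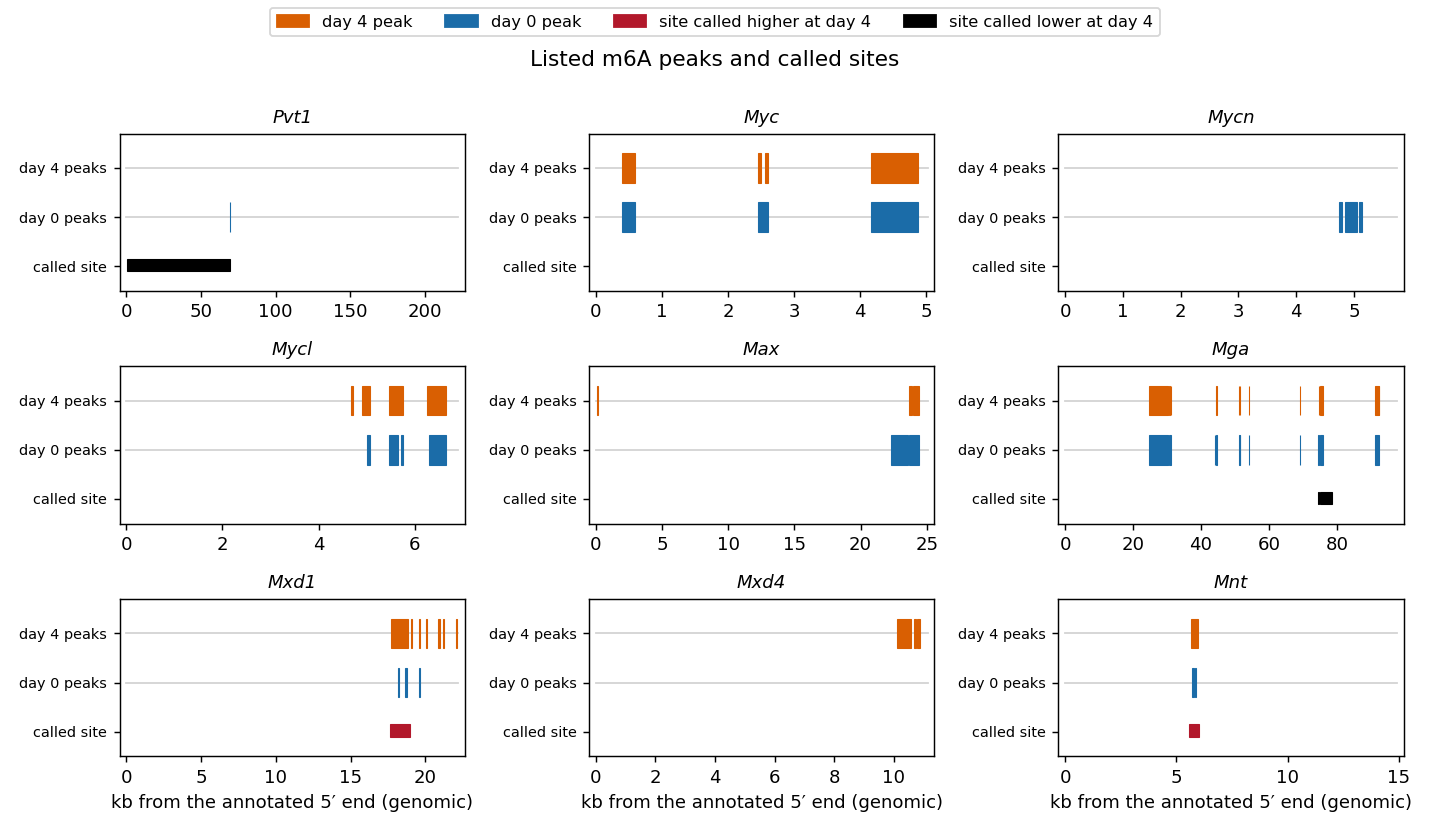
Listed peaks of 9 members at day 4 (upper row, orange) and day 0 (middle row, blue) and called differential sites (lower row, red where higher at day 4, black where lower), by kb along the genome from the annotated 5′ end. Peaks are to scale with a thin outline, so gaps narrower than the outline close. Sites are drawn over their whole genomic span, which may include introns. Pvt1 and Mycn have peaks at day 0 alone and Mxd4 at day 4 alone.

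Listing of peaks on a single day went with the direction of expression. Pvt1 and Mycn had peaks at day 0 only, a state shared by 13.1% of all genes with a peak on either day. Mxd4 had peaks at day 4 only, the state of 7.67% of such genes. In the expression table as a whole, 96.0% of genes with peaks at day 0 only were lower at day 4, and 93.8% of genes with peaks at day 4 only were higher. These shares were also used to read the direction of the table, and Pvt1, Mycn and Mxd4 lie on the common side of each. Whether the level of the RNA sets which peaks are listed was not tested.

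The peak in Pvt1 was a single one, 50 bp wide, from 62107280 to 62107329 on the plus strand of chromosome 15, and lay 69294 bp along the genome from the annotated 5′ end. Its enrichment score of 74.3 was at or above that of 78.4% of day 0 peaks, but its unadjusted p of 1.4e-07 was at or below that of only 17.8% of them. In Myc the peak with the highest score of the day 0 list for that gene, 62.1, was 700 bp wide, ended 150 bp before the annotated 3′ end and had a p at or below that of 99.7% of day 0 peaks. High score and small p therefore did not go together between the neighbours, whose mean normalized counts were 153 and 3712.

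Myc kept the same 3 stretches on both days. The first, 400 bp from the 5′ end, and the last were listed at identical coordinates on both days. The middle stretch was listed as a pair of 50 bp peaks at day 4, with scores of 0.980 and 1.63, and as 1 peak of 150 bp at day 0, with a score of 3.24. The lower of the day 4 scores came with an unadjusted p of 0.589 and was a score that 0.0217% of day 4 peaks had or fell below.

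Mycn had 3 day 0 peaks between 599 and 949 bp from its annotated 3′ end, on chromosome 12 between 12936692 and 12937091 (minus strand). Their scores were 73.3, 168 and 186, with unadjusted p-values between 2.4e-09 and 1.2e-06. Mycl had 4 peaks on each day, all ending within 2188 bp of its 3′ end, from 123000253 to 123002232 on chromosome 4 at day 4 and from 123000599 at day 0. Every Mycl peak of day 0 overlapped a day 4 peak, and 1 day 4 peak, 50 bp wide with a score of 2.14, had no day 0 counterpart.

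Max had peaks near its 3′ end on both days and another at its 5′ end at day 4. At day 4 the 3′ peaks ran from 76937904 to 76938638 on chromosome 12 (minus strand), with scores of 5.997 and 6.21, and at day 0 from 76937904 to 76939995, with scores of 20.7 and 3.89. The additional day 4 peak, from 76962150 to 76962199, lay 124 bp from the annotated 5′ end of the gene and shares 1 base with the downstream end of the promoter window printed above. Its score was 5.64 and its unadjusted p was 6.7e-08.

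Mxd1 had 7 peaks at day 4 and 3 at day 0. Of the day 4 peaks 5 had no day 0 counterpart, and they lay between 100 and 3075 bp from the annotated 3′ end. At day 4, 4.79% of genes with a peak had 7 or more, and at day 0, 40.8% had 3 or more. Mxd4 had 3 peaks at day 4, from 34176825 to 34177617 on chromosome 5, their nearest edges 245 to 540 bp from the 3′ end, with scores between 2.44 and 4.81.

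Mga was among the most heavily covered transcripts of either list, with 14 peaks at day 4 and 12 at day 0. Only 0.202% of genes with a day 4 peak had as many, and 0.515% of genes with a day 0 peak. Of its 14 day 4 peaks 13 overlapped a day 0 peak. The Mga peak with the highest score was at 119963790 to 119964788 on chromosome 2 at day 4 (score 84.8) and at 119963740 to 119964987 at day 0 (score 74.9). The widest listed peak of Mga spanned 5359 bp at day 4 and 5409 bp at day 0, and may cross introns. Mnt held 1 peak of 299 bp at day 4 and 2 peaks of 50 bp inside the same stretch at day 0, from 74836483 to 74836781 on chromosome 11 at day 4, 5677 bp from its 5′ end.

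The authors' methylation table lists sites that differ between the days at a false discovery rate of at most 0.05. It held 5 sites in 4 members, 2 gains (Mxd1 and Mnt) and 3 losses (Pvt1 and 2 in Mga). Among the 36796 sites tested, 4.79% were gains and 2.17% losses. Of the 9 members with a peak 4 held a called site, against 25.2% of all genes with a listed peak. The base of its log fold change is not stated, so these values are read as signed scores.

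The site in Pvt1 ran from 62038086 to 62107428, a span of 69343 bp that starts 100 bp into the gene and takes in the day 0 peak. This span may cross introns, and the only listed peak in it was 50 bp wide. In the authors' deposited table this loss was -1.19 on the log scale and its false discovery rate, 0.0381, was close to the limit, so at a limit of 0.01 Pvt1 had no called site. Among all losses in the table with a finite value, 23.0% were at least as large, and the median loss was -0.83. In the authors' deposited table both Mga losses lay side by side, from 119947005 to 119947304 (-1.10, rate 0.0409) and from 119947404 to 119951144 (-0.84, rate 5.8e-06). Both were in stretches with listed peaks on both days.

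The gain in Mxd1, from 86650268 to 86651571 on chromosome 6, was 0.91 in the authors' deposited table (rate 0.0141), and that in Mnt, from 74836383 to 74836831, was 1.63 (rate 0.00127). The median gain of all sites in the authors' deposited table was 1.82, so both were below it. Sites of Pvt1, Mga and Mxd1 went the same way as their expression. Among all genes of the expression table with called losses alone, 58.0% were lower at day 4, and among those with gains alone 54.0% were higher, so that equal signs were only slightly more frequent than opposite ones in both classes.

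Of the 11 member peaks at day 4 without a day 0 counterpart, 0 lay in a called site, against 14.3% of the 3895 such peaks of all genes. Of the 7 member peaks at day 0 without a day 4 counterpart 1 did, the peak of Pvt1, against 4.45% of the 5933 such peaks of all genes. With so few member peaks, neither count is read as a difference from the rest. The 3 day 0 peaks of Mycn and the 3 day 4 peaks of Mxd4, and the 5 additional day 4 peaks of Mxd1, therefore had no listed difference in methylation, which means not called or not tested. Myc, Mycn, Mycl, Max and Mxd4 had no site in the methylation table.

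Pvt1 combined a lower level, peaks at day 0 alone and a called loss. These calls are not independent, since the direction of both comparisons was itself read from genes and sites with single-day peaks. Peaks at day 0 alone were found in 765 of the 3938 lower genes (19.4%), and 30 of these 765 (3.92%), Pvt1 included, also had called losses and no gain. Over all 3938 lower genes, 239 had called losses and no gain, so the count of 30 is only a description. Of the 30 genes, 25 were protein coding in RefSeq and Pvt1 was annotated as a long noncoding RNA. The other 4 symbols, 5330426P16Rik among them, had no match, so their type is unknown. The share of long noncoding RNAs among all lower genes was not counted. With peaks at p under 0.01 and sites at a false discovery rate under 0.01, 11 genes had these calls and Pvt1 was not among them. Nearest to Pvt1 by log2 fold change among the 29 others were 5330426P16Rik (-0.94), Ppwd1 (-0.96), Fam175a (-0.96), Pthlh (-0.96) and Clcc1 (-0.97) in the authors' deposited table. Pthlh codes for parathyroid hormone-related protein, a factor that keratinocytes secrete.

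Over all 7978 genes of the expression table the median log2 fold change was 0.26, with 4040 higher and 3938 lower. Of all 14924 genes tested, 26.4% were called lower and 27.1% higher. The lists of functional partners, targets and regulators below include genes that were not listed, some of which may not have been tested. Their counts are therefore read beside these shares of tested genes, and the medians of their listed genes beside the median of 0.26, both without a test.

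**Figure D3:**
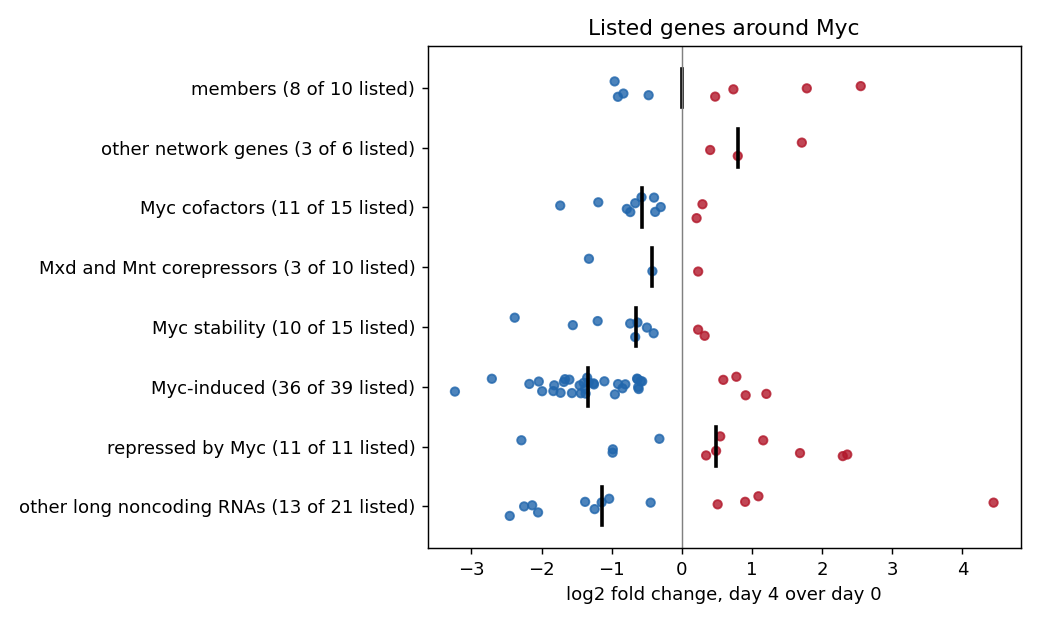
Log2 fold change, day 4 over day 0 (x axis), of each listed gene (points, red where higher and blue where lower at day 4) in the members and 7 lists, with the median of the listed genes as a black bar. The Myc-induced list has 32 of its 36 listed genes below 0, and the list of genes repressed by Myc has 7 of 11 above 0.

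Textbook Myc-induced genes numbered 39, of which 32 were lower at day 4, 4 higher and 3 not listed, with a median log2 fold change of -1.34 among those listed. The one-carbon enzymes Shmt2 (-3.24, SE 0.14) and Shmt1 (-2.71, SE 0.13) fell most by the authors' deposited table, followed by Odc1 (-2.17, SE 0.15), which makes polyamines, and the nucleolar protein Ncl (-2.04, SE 0.10). The glucose transporter Slc2a1 (1.21, SE 0.09) and the telomerase subunit Tert (0.91, SE 0.16) rose in the authors' deposited table. The other 2 higher genes, chosen after their values were seen, were the glycolytic enzymes Pkm (0.78) and Ldha (0.59) in the authors' deposited table. Promoter windows were available for 33 of the 39, and 9 of these (27.3%) held CACGTG. The share was 12.9% of all genes lower at day 4 that had a window, and 10.97% of those higher at day 4. Of the 9, Ldha was higher and Cdk4 was not listed, while the others were lower, between -1.57 (Hspd1) and -0.62 (Eif4a1). Shmt2, Shmt1, Odc1 and Ncl were not among the 9. Whether the motif goes with the falls was not tested.

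Textbook genes repressed by Myc, some of them through Miz-1, were all listed, 7 of 11 higher and 4 lower, with a median log2 fold change of 0.49. The matrix protein Thbs1 (2.36, SE 0.34), the kinase inhibitor Cdkn2b (2.30, SE 0.16) and Ndrg2 (1.69, SE 0.15) rose in the authors' deposited table. Cdkn2b is the classic target that Miz-1 activates and Myc holds down. Another kinase inhibitor, Cdkn1c (-2.29, SE 0.22), the integrin of basal keratinocytes Itga6 (-0.99, SE 0.14) and the stress gene Gadd45a (-0.98, SE 0.15) fell in the authors' deposited table.

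Cofactors that carry Myc's activity on chromatin were lower for 9 of 15, higher for 2 and not listed for 4 (median -0.57). The paired ATPases Ruvbl1 (-1.73, SE 0.15) and Ruvbl2 (-1.19, SE 0.13), the acetyltransferase Kat2a (-0.78, SE 0.11) and Wdr5 (-0.73, SE 0.09), which anchors Myc on chromatin, fell in the authors' deposited table. Bptf (0.29, SE 0.13, DESeq2 adjusted p = 0.0443) and Paf1 (0.21, SE 0.09, DESeq2 adjusted p = 0.0440) rose slightly in the authors' deposited table. Corepressors used by the Mxd and Mnt proteins were mostly not listed (7 of 10). Rbbp7 (-1.32, SE 0.12) and Hdac2 (-0.42, SE 0.11) fell and Sin3b (0.23, SE 0.08) rose in the authors' deposited table.

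Regulators of the stability of Myc protein were lower for 8 of 15, higher for 2 and not listed for 5 (median -0.65). Aurka (-2.38, SE 0.15), a mitotic kinase that shields N-Myc from degradation, the ubiquitin ligase subunit Skp2 (-1.55, SE 0.18), the nucleolar deubiquitinase Usp36 (-1.20, SE 0.10) and the F-box gene Fbxl14 (-0.74, SE 0.12) fell most by the authors' deposited table. The ligase genes Btrc (0.33, SE 0.11) and Stub1 (0.23, SE 0.09) rose in the authors' deposited table. Fbxw7 and Gsk3b, whose products mark Myc for degradation, were not listed.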

How the data were processed

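RNA of primary mouse keratinocytes at day 4 and day 0 was profiled in 12 libraries, grouped by their titles. Per the labels' protocols, polyadenylated RNA was sonicated, enriched with an m6A antibody kit and sequenced from stranded libraries. Per the submitters' processing notes, the authors used HISAT2 2.1.0, DESeq2 1.18.1 and mm10. No source used here names the peak caller or the methylation test.

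Per the file headers, each peak of the deposited lists has an enrichment score and a p-value that is not adjusted. In the authors' deposited expression table, a mean normalized count (a signal) stands beside a log2 fold change with its SE, per the file headers. For methylation, the authors' deposited values are log fold changes of unstated base, used as a score. Both tables list only values under 0.05 and name no direction, which was read as day 4 over day 0 from single-day peaks: 98.8% of sites overlapping only day 4 peaks were positive, and 75.6% of those overlapping only day 0 peaks, as in Pvt1, were negative. The numbers tested were derived from adjusted p times rank over p.

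The 10 members and 8 lists, neighbours of Pvt1 included, were chosen with earlier results of these data known. Text names all members, every listed gene of the wider network, up to 4 genes per list with the largest change at a mean normalized count of at least 100, up to 2 going the other way, and the 5 genes nearest to Pvt1. Other genes, such as Fbl, Ccnd2, Hk2, Tug1, Fbxw7 and Gsk3b, were named outside this rule. Intervals are 1.96 SE. Peaks overlap at 1 bp or more on the same strand. Gene spans and promoters are RefSeq, GRCm38.p6; 9 of 10 symbols matched. Exons were not analysed here. Alternatives were stricter p-values, a 2-fold minimum, a minimum count and other overlaps. Overlap and the number tested were tested on simulated data. The software was pandas 2.3.3, numpy 2.4.6, matplotlib 3.10.9 and scipy 1.17.1 under Python 3.11.15.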

Additional observations from a re-analysis of the deposited data

How the results depend on the processing

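Of 66 recomputed counts, 45 stayed within 1.5 times the reported count. A change of at least 2-fold left 2 members higher (Mycl and Mxd4) and 0 lower, counted by the DESeq2 estimates and not by a test against 2-fold. The same limit left 1 higher gene of the wider network, 0 higher and 2 lower cofactors, 0 higher and 1 lower corepressors, 0 higher and 3 lower stability genes, 1 higher Myc-induced gene, 4 higher and 1 lower repressed genes and 2 higher long noncoding RNAs. At an adjusted p under 0.01 (DESeq2), 0 cofactors, 0 corepressors and 1 stability gene were higher. With 50% of both peaks in common, 15 member peaks were shared, counted from either day. At a false discovery rate under 0.01, 1 gain (Mnt) and 1 loss (Mga) remained in members, and the site in Pvt1 did not. With peaks at p under 0.01 and sites at a false discovery rate under 0.01, 11 genes had the calls of Pvt1, Pvt1 not among them. The smaller counts follow from the stricter limits themselves. Zbtb17 counted as Miz1, an alternative added after the data were seen, changed no count by more than 1.5 times. No paired analysis was possible because the files hold no value per library, and replicates were not left out for the same reason. Depth per library is unknown, so how far it limits the peaks of Pvt1 and Mycn was not tested.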

Other observations

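Other long noncoding RNAs were listed in both directions. Of 21, 9 were lower at day 4, 4 higher and 8 not listed (median log2 fold change -1.14). Among all 14924 genes tested, 26.4% were called lower and 27.1% higher, and no difference from these shares was tested. Snhg12 (-2.45, SE 0.33), Gas5 (-2.25, SE 0.17), Snhg5 (-2.13, SE 0.19) and Snhg1 (-2.05, SE 0.17), hosts of small nucleolar RNAs, fell most by the authors' deposited table. The nuclear RNAs Malat1 (1.09, SE 0.13) and Neat1 (0.90, SE 0.12) rose in the authors' deposited table. Peaks were listed on both days for 5 of the 21 and at day 0 only for 4, and called sites lay in Malat1 (2 gains), Neat1 (3 gains and 2 losses), Gas5 (1 gain) and Tug1 (1 loss).

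Called sites in the listed genes around Myc were mostly gains, as they were among all genes, and no difference from that share was tested. The members themselves held 2 gains and 3 losses. Myc-induced genes held 11 gains and 4 losses, the cofactors 4 gains and no loss, the corepressors 4 gains and no loss, the stability genes 1 gain, and the genes repressed by Myc 4 gains and 1 loss, against 1763 gains and 798 losses in the whole methylation table. Fbl, a nucleolar methyltransferase, fell in expression and held 2 gains (log fold change 1.80 and 3.85 in the authors' deposited table). Ccnd2 and Hk2 each held 1 gain and 1 loss at different places. Mlxip, Zbtb17 and Pias2 had peaks on both days and no called site, with 4, 1 and 2 peaks at day 4 and 6, 1 and 2 at day 0. Mxi1 and Mlx, which rose, had no listed peak on either day.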
